A study of Rattus norvegicus with 16 samples.

Results

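The early response of neural stem cells to the stiffness of their surroundings was examined in the 8 libraries taken at 12 h, out of 16 in the series. They were chosen by the time label alone, and 4 came from stiff gels (1.2 kPa) and 4 from soft gels (100 Pa). The other 8 libraries, taken at 48 h, enter only where the effects at both times are compared. The cells were adult rat hippocampal neural stem cells, also labelled neural progenitor cells, held in 3D gels based on hyaluronic acid, a polysaccharide of brain matrix. All groups, the soft ones included, were kept in mixed differentiation medium, DMEM-F12 with N2 and with 1 μM retinoic acid and 1% FBS, so that no group is an undifferentiated control. The 4 groups at 12 h were soft without RGD, soft with RGD, stiff without RGD and stiff with RGD, with 2 libraries each. RGD is a short peptide motif of matrix proteins to which integrins bind, and the RGD comparison serves here as a covariate. Whether replicates came from separate cultures or animals is not given in the sources used here, so the p-values reflect only how far these samples vary, and that variation could be technical.

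Cells sense stiffness by pulling on their surroundings through adhesion receptors coupled to the actin cytoskeleton. Tension on these links is known to act on gene expression through kinases at adhesions and through transcriptional co-activators such as YAP and MRTF, which move between cytoplasm and nucleus. In cultured hippocampal neural stem cells, stiffness is known to bias the choice between neuronal and glial fates, and the hours after plating are regarded as a period when cells respond to it. Finding stiffness-dependent genes is the stated purpose of the series.

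Transcripts are given by Ensembl identifier, since 0 identifiers of the table could be paired with a gene symbol through the reference used here. Gene lists for YAP, MRTF, adhesion, matrix, lineage, stress and RNA quality were therefore not analysed here, and the labelled cell type could not be compared with its markers. At most 2 transcripts in each direction are named. The results describe the size of the response, its distribution over abundance, its agreement between gels without and with RGD, and its relation to the values at 48 h.

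Before the results, some differences between the libraries as a whole have to be stated. Stiff libraries were deeper: the 4 soft libraries held 1829779 to 2157015 counts and the 4 stiff libraries 2294844 to 3420786, without overlap (exact two-sided permutation test, 4 against 4, p = 0.0286, the smallest that 70 arrangements can give). Without the 2 most abundant transcripts, the depth was 854022 to 1060504 in soft and 1104099 to 1645978 in stiff libraries (the same exact permutation test, p = 0.0286). Those 2 transcripts took 53.5% ± 1.94 of the counts in soft and 49.6% ± 2.99 in stiff libraries (SD, n = 4 each), a difference that missed the threshold (exact permutation test, p = 0.0857). Soft libraries had 10440 to 10828 transcripts with a count and stiff libraries 10857 to 11385 (exact permutation test, p = 0.0286). After all libraries were thinned at random to the lowest total, the ranges were 10440 to 10618 and 10577 to 10858 (exact permutation test, p = 0.0857). The stiffness comparison was repeated on thinned libraries, and the counts of calls are given beside the result.

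The 8 libraries differed most along an axis that parted soft from stiff gels. On the first principal component of log2 CPM (normalised counts scaled to a common library size), which held 26.8% of the variance, the soft libraries scored -19.1 to -11.8 and the stiff libraries 10.6 to 22.1. RGD did not part the libraries on this axis. Within each stiffness, the score also rose with the TMM factor, a scaling factor that aligns the bulk of transcripts between libraries. The factor ran from 0.905 to 1.02 in soft and from 0.990 to 1.17 in stiff libraries. What part of the axis goes with it was not tested. The second component held 16.6% and placed the 2 replicates of the stiff gel without RGD farthest apart, at -12.9 and 21.0. The soft libraries without RGD stood at 8.59 and 11.7 on it and those with RGD at -9.90 and -10.7.

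**Figure D1:**
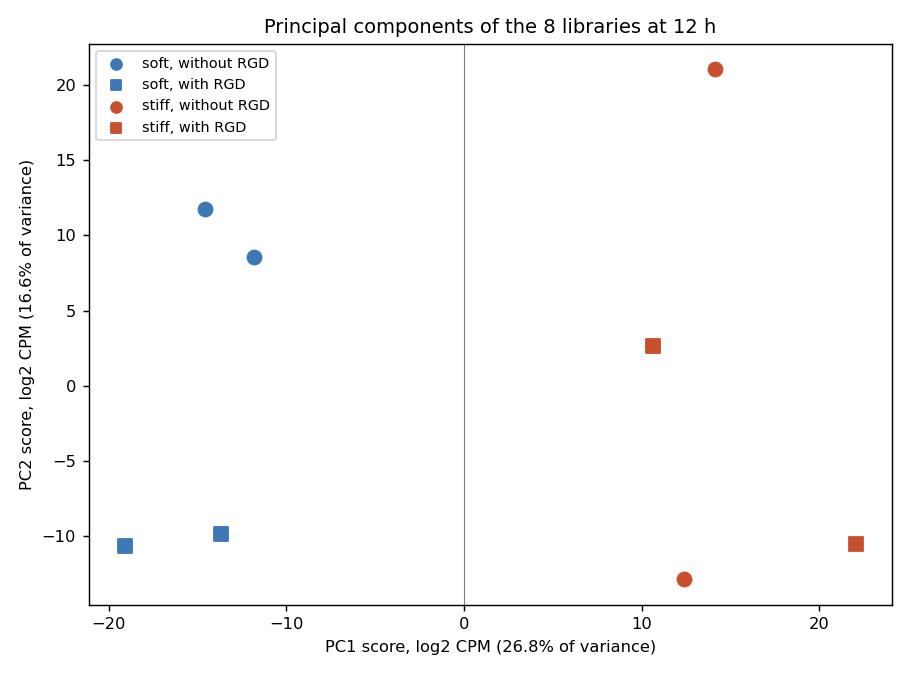
Scores of the 8 libraries at 12 h on the first (x axis) and second (y axis) principal components of log2 CPM, 1 point per library, coloured by stiffness and shaped by RGD. All 4 stiff libraries lie at 10.6 or above on the first component and all 4 soft libraries at -11.8 or below.

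The same was seen in plain distances between libraries. Over the 2278 transcripts that averaged at least 100 counts, the median absolute log2 difference between the replicates of a group was 0.133 to 0.212 (4 pairs). The closest replicates came from the soft gel lacking RGD, at 0.133, and the most distant from the stiff gel lacking RGD, at 0.212. Pairs of the same stiffness that differed in RGD lay at 0.140 to 0.201 (8 pairs), within the range of the replicates. Pairs of a stiff and a soft library with the same RGD status lay at 0.175 to 0.276 (8 pairs), with a median of 0.219 against 0.168 for replicates. The ranges overlapped, so single pairs of libraries did not always show the difference. Distances carry counting noise, which is larger in the shallower soft libraries.

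At 12 h, 506 of the 7345 transcripts tested differed between stiff and soft gels, 6.89%, with 311 higher in stiff gels (4.23%) and 195 lower (2.65%). Those that were higher had a median log2 fold change of 0.63, with quartiles of 0.49 and 0.87. Those that were lower had a median of -0.50, with quartiles of -0.65 and -0.39. Over all transcripts tested the median was -0.01, with quartiles of -0.21 and 0.22. Of the 311 higher, 177 changed more than 1.5-fold and 59 more than 2-fold, and of the 195 lower, 68 and 12 did. Over all transcripts tested, 456 (6.21%) rose more than 1.5-fold and 264 (3.59%) fell by more. More than 2-fold, 106 (1.44%) rose and 47 (0.64%) fell. In bulk RNA, a change in the cells of a type and a change in RNA per cell cannot be told apart. The changes were thus mostly moderate, and large ones were more often increases, among the calls as among all transcripts tested.

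Differences were tested with edgeR's quasi-likelihood test, with RGD as a covariate and Benjamini-Hochberg adjustment, fitted to the 12 h libraries alone, where the common biological coefficient of variation was 0.123. The balance of higher and lower calls depended on the scaling. TMM factors, which align the bulk of transcripts between libraries, were 0.905 to 1.02 in soft and 0.990 to 1.17 in stiff libraries. Scaled by library totals alone, the median log2 fold change of all transcripts moved up by 0.147, and 507 transcripts were called higher and 37 lower, so that 93.2% of the calls were higher in place of 61.5%. All 311 higher calls remained called, while of the 195 lower ones 35 remained called, though all 195 kept a negative sign. With totals that left out the 2 most abundant transcripts, 346 were called higher and 140 lower. Changes are therefore given relative to the bulk of transcripts.

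Once every library had been thinned to the same total, edgeR called 425 transcripts, of which 267 were higher and 158 lower. The 506 included 384 of these. Equal totals still left the stiff libraries more counts outside the 2 most abundant transcripts. With that pair removed first and the remaining counts thinned to the same total, 388 transcripts were called, 249 higher and 139 lower, and the 506 included 354 of these.

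**Figure D2:**
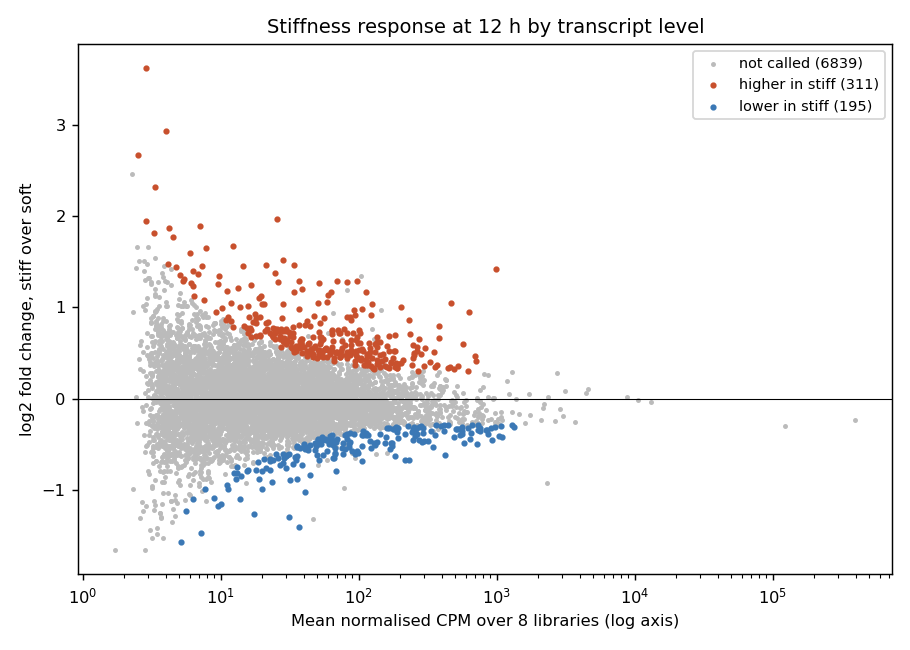
Log2 fold change of stiff over soft gels (y axis) against mean normalised CPM over the 8 libraries (x axis, log scale) for the 7345 transcripts tested, 1 point per transcript. The 311 called higher reach larger changes than the 195 called lower, and the calls close in on smaller changes as the level rises.

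The share of transcripts called rose with their level, along with the counts behind them. Among 728 transcripts below 5 CPM, 1.37% were called, and none of these 10 was lower (the 10 had a median absolute log2 fold change of 1.91). From 10 to 30 CPM, 4.12% of 2328 were called, 64 higher and 32 lower, with a median absolute log2 fold change of 0.78. From 30 to 100 CPM, 9.60% of 2020 were called, 125 higher and 69 lower, with a median of 0.57. Changes under 0.565 on the log2 scale were thus never called between 10 and 30 CPM, and those under 0.373 were never called between 30 and 100 CPM.

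At high levels small changes passed the test. From 100 to 300 CPM, 17.8% of 708 transcripts were called, 78 higher and 48 lower, with a median absolute log2 fold change of 0.44. From 300 CPM upward, 23.7% of 241 were called with a median of 0.36, and here the direction was the other way about, with 18 higher and 39 lower. That direction turned with the scaling, since library totals alone gave 28 higher and 5 lower at this level. The median log2 fold change of all 241 was -0.14 with TMM factors and 0.00425 with library totals.

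ENSRNOT00000042098.3 had the smallest p among transcripts that rose. Its level in the soft gels without RGD was 508 and 465 CPM in replicates 1 and 2, and in those with RGD 530 and 657 CPM. In the stiff gels lacking RGD it was 1438 and 1528 CPM, and in those carrying RGD 1257 and 1527 CPM. Every stiff library was thus well above every soft one, and the gap between them was wider than the range of either group. The means were 540 ± 82.6 and 1437 ± 127 CPM (SD, n = 4 each), a 2.67-fold rise (log2 1.42 ± 0.10 SE, edgeR adjusted p = 9.36e-16). It ranked 40th of the transcripts tested by mean level, and 906 to 5149 counts stood behind each value.

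ENSRNOT00000026303.4 also rose, with a response that was nominally larger with RGD. Soft gels gave 332 and 357 CPM where RGD was absent, and 253 and 285 CPM where it was present. Stiff gels gave 482 and 710 CPM in its absence, and 667 and 665 CPM in its presence. The groups did not overlap, but replicate 1 of the stiff gel without RGD stood well below the other 3 stiff libraries. The means were 306 ± 46.5 and 631 ± 102 CPM (SD, n = 4 each; log2 1.05 ± 0.11 SE, edgeR adjusted p = 2.67e-07). The log2 fold change was 0.79 ± 0.15 without RGD and 1.31 ± 0.15 with RGD (SE), and the difference of 0.52 ± 0.21 was not called (edgeR adjusted p = 0.998). For ENSRNOT00000042098.3 the difference went the other way, at -0.38 ± 0.20 (SE), and was not called either (edgeR adjusted p = 0.998).

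ENSRNOT00000028315.6 had the smallest p among transcripts that fell. The soft libraries stood at 37.1 and 41.6 CPM in gels lacking RGD, and at 50.5 and 47.3 CPM in gels carrying it. The stiff libraries stood at 16.9 and 17.1 CPM, and at 25.7 and 12.5 CPM, in the same order. All 4 stiff libraries were below all 4 soft ones, with the widest spread between the replicates of the stiff gel with RGD. The means were 44.1 ± 5.97 and 18.0 ± 5.54 CPM (SD, n = 4 each; log2 -1.30 ± 0.19 SE, edgeR adjusted p = 3.62e-06), a 2.45-fold fall on 39 to 89 counts per library.

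ENSRNOT00000017868.5 fell by less, at a higher level. Levels in soft gels were 462 and 512 CPM where RGD was absent, and 520 and 573 CPM where it was present. Levels in stiff gels were 286 and 389 CPM, and 292 and 375 CPM, in the same order. Replicate 2 was the higher one in all 4 groups, and none of the stiff libraries reached the soft range. The means were 517 ± 45.5 and 335 ± 53.8 CPM (SD, n = 4 each; log2 -0.62 ± 0.10 SE, edgeR adjusted p = 3.19e-05). These 4 transcripts kept their direction and stayed past the threshold with each of the 8 libraries left out in turn. They were chosen for the smallest p on these same libraries, which makes this likely.

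**Figure D3:**
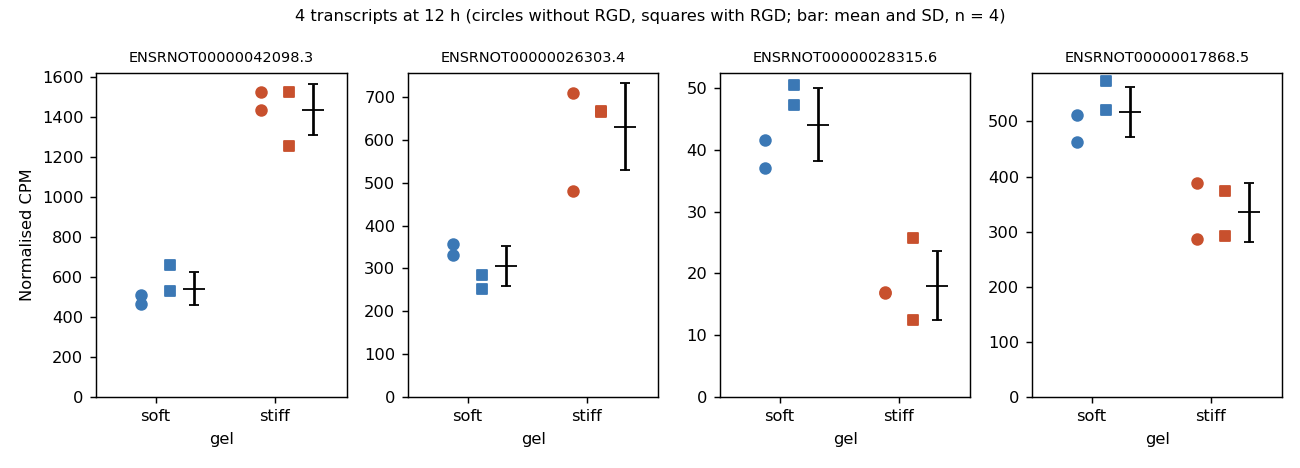
Normalised CPM (y axis, from 0) of 4 transcripts in soft and stiff gels at 12 h, 1 point per library, circles without RGD and squares with RGD, with the mean and SD of the 4 libraries beside them. In each panel the 4 stiff libraries lie outside the range of the 4 soft libraries, which choice by smallest p on these libraries makes likely.

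Separation of the groups was more common than the calls. All 4 stiff libraries lay above all 4 soft libraries for 437 transcripts, 5.95% of those tested, and below them for 402, 5.47%. In an exact permutation test of 4 against 4, full separation has p = 0.0286 for both directions together. Of the 311 called higher, 241 were separated in this way, and of the 195 called lower, 158. Calls and separation rest on the same libraries, which makes that overlap likely. By library totals alone, 715 transcripts were separated upward and 121 downward, so the near balance of both directions also depended on the scaling.

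Summed over the transcripts called, the difference covered a small part of the counts. The 2 most abundant transcripts, of which 0 were called, took 50.8 to 55.2% of the counts in soft and 45.6 to 51.9% in stiff libraries. The 311 higher transcripts together held 22798 to 25467 CPM in the 4 soft libraries and 33858 to 39140 CPM in the 4 stiff libraries. The 195 lower ones held 43954 to 49397 CPM in the soft libraries and 32257 to 36034 CPM in the stiff ones. In soft gels the lower set thus held more of the counts than the higher set, and in stiff gels both held similar amounts. These sums describe transcripts chosen on the same libraries and have no test.

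The stiffness response was in the same direction without and with RGD. For all 506 transcripts called, the fold changes of both conditions had the same sign, against 65.5% of all transcripts tested, though a call on the average of both makes a shared sign likely. The 311 higher had a median log2 fold change of 0.61 without RGD and 0.67 with RGD, and the 195 lower of -0.44 and -0.55. The change was larger with RGD for 332 of the 506. The matching share over all transcripts was not counted, so nothing is read from this count. The median absolute log2 fold change of all transcripts was also larger with RGD, at 0.26 against 0.24.

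**Figure D4:**
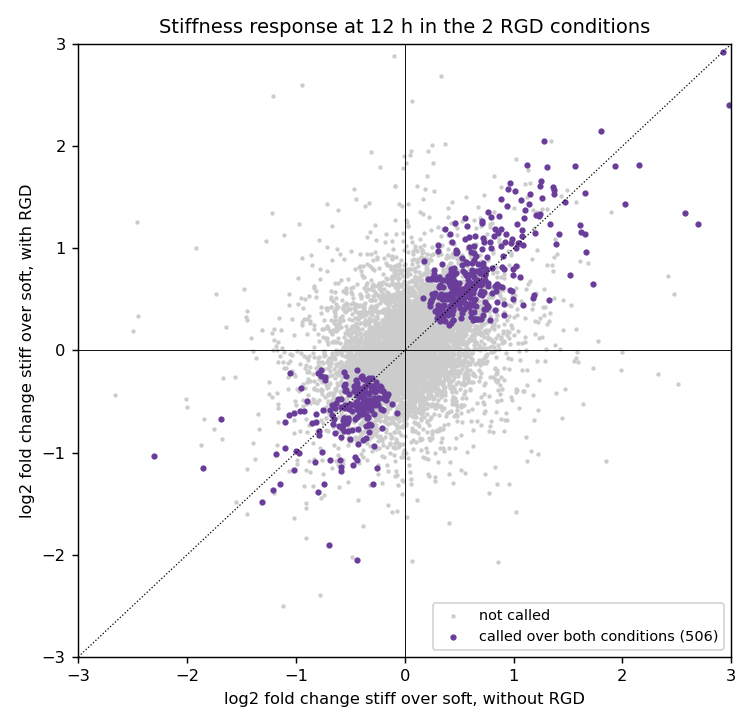
Log2 fold change of stiff over soft gels without RGD (x axis) against that with RGD (y axis), 1 point per transcript, with the 506 called over both conditions in colour, a dotted line of equal change, and 6 points beyond ±3 outside the axes. All 506 lie in the quadrants where both changes have the same sign.

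Each RGD condition was also fitted alone and its calls read in the other condition, which shares no library with it. In the gels with RGD, 2 stiff against 2 soft libraries gave 307 calls by edgeR, 4.18% of those tested, with 197 higher and 110 lower. In the gels without RGD, 190 of the 197 were higher in stiff gels and 106 of the 110 were lower, while 50.3% of all transcripts were higher there. Their median log2 fold changes went from 0.80 where they were chosen to 0.57 in the gels without RGD, and from -0.71 to -0.37. Choice by the test raises the first value of each pair. By library totals alone, 193 of the 197 and 97 of the 110 had these signs, while 39.3% of all transcripts were lower in the gels without RGD.

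The gels without RGD alone gave 34 calls by edgeR, 0.463% of those tested, with 28 higher and 6 lower. All 28 were higher and all 6 lower in stiff gels with RGD too, and this held by library totals alone. Their median log2 fold changes were 1.02 and -1.15 without RGD and 1.19 and -0.81 with RGD. The lists shared 28 transcripts with the same sign, which was 82.4% of the shorter list and 9.12% of the longer one. The spread between replicates was wider without RGD, with a biological coefficient of variation of 0.139 against 0.119. Depth differed more between soft and stiff libraries with RGD, at 1829779 and 2090015 against 2545660 and 3420786 counts. Without RGD the totals were 2157015 and 2137103 against 2294844 and 2529499. The part of spread or depth in the unequal length of the lists was not tested.

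Whether the effect of stiffness depended on RGD was tested in the 8 libraries. No transcript was called by edgeR (0% of 7345), where 193 had an unadjusted p below 0.05 (2.63%) and the lowest adjusted p was 0.998, and DESeq2 and limma-voom also called 0. Among the 506 transcripts with a stiffness call, 18 had an unadjusted p under 0.05 for this difference, 3.56%. By edgeR there was 1 call when either replicate of the stiff gel without RGD, the 2 most distant replicates, was left out.

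Over the 8 libraries at 48 h, the transcripts called higher at 12 h were more often higher than all transcripts, while those called lower were lower no more often than all transcripts, and neither share was stable to the omission of single libraries. Of 308 higher transcripts with a value at 48 h, 226 were higher in stiff gels then too (73.4%), against 50.7% of all transcripts, with a median log2 fold change of 0.10. Of the 195 lower ones, 96 were lower at 48 h (49.2%), against 49.3% of all transcripts, with a median of 0.00306. The share of the higher ones that kept their sign ranged from 47.7% to 81.5% when single 48 h libraries were left out, the former for replicate 1 and the latter for replicate 2 of the stiff gel carrying RGD. For the lower ones, the share ranged from 42.1% without the first of these libraries to 61.0% without replicate 2 of the 48 h soft gel lacking RGD. Scaling by library totals at 48 h gave 73.7% and 49.2%.

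The sums of the same transcripts in the 48 h libraries showed no separation. The higher set held 28741 to 41851 CPM in the 4 soft and 30660 to 42074 CPM in the 4 stiff libraries. The lower set held 35265 to 41904 CPM in soft and 31814 to 42614 CPM in stiff libraries. Both ranges overlapped almost fully. At 48 h the soft libraries thus lay above the 12 h soft range for the higher set and below it for the lower set. Both sets were chosen on the 12 h libraries, as low or high in soft gels, and that choice can by itself give part of such a shift. These levels compare sums scaled over the 8 libraries at 12 h with sums scaled over all 16.

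The named transcripts differed in what they did at 48 h. ENSRNOT00000042098.3 ranged from 517 to 1275 CPM in the 4 soft and from 763 to 1749 CPM in the 4 stiff libraries, which overlapped (log2 0.64 ± 0.26 SE). ENSRNOT00000026303.4 ranged from 554 to 1082 CPM in soft and from 955 to 1446 CPM in stiff libraries (log2 0.74 ± 0.19 SE). ENSRNOT00000028315.6 was dispersed at 48 h, from 7.997 to 68.0 CPM in soft and from 27.9 to 66.2 CPM in stiff libraries, and its log2 fold change of 0.48 ± 0.69 (SE) had the opposite sign to that at 12 h. ENSRNOT00000017868.5 ranged from 472 to 592 CPM in soft and from 366 to 574 CPM in stiff libraries (log2 -0.16 ± 0.16 SE).

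Whether the effect of stiffness differed between 12 h and 48 h was tested over all 16 libraries. By edgeR, 0 of 7876 transcripts were called (0%), where 693 had an unadjusted p below 0.05 (8.80%) and the lowest adjusted p was 0.228, and DESeq2 and limma-voom also called 0. For ENSRNOT00000042098.3 the log2 fold change at 12 h exceeded that at 48 h by 0.78 ± 0.33 (SE; edgeR adjusted p = 0.527), and for ENSRNOT00000028315.6 the difference was -1.77 ± 0.83 (SE, edgeR adjusted p = 0.587). Without a filter on low counts edgeR called 32, and with replicate 1 of the 48 h soft gel lacking RGD left out it called 26. By this test, no single transcript was thus shown to respond differently at the 2 times. For this difference, 128 of the 311 higher calls and 89 of the 195 lower calls had an edgeR unadjusted p under 0.05. These all had the larger change at 12 h, and 0 went the other way. They were chosen at 12 h, which makes a larger change at that time likely. The replicates at 48 h were more dispersed, with a biological coefficient of variation of 0.191 against 0.123 at 12 h, both fitted alone.

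Which libraries were fitted decided how many transcripts were called for stiffness at 12 h. With each of the 8 libraries left out in turn, edgeR called 244 to 647 transcripts, of which 56.4% to 67.3% were higher in stiff gels. The count was 244 when replicate 2 of the soft gel carrying RGD was left out, 269 for replicate 2 of the soft gel lacking RGD, and 272 for replicate 1 of the stiff gel carrying RGD. These 3 omissions lowered the count by over 1.5 times, and the first of these libraries had the lowest score on the first principal component and the last the highest. In the same order, their TMM factors were 0.905, 0.915 and 1.17, the lowest ones and the highest of the 8. Their shares of counts in the 2 most abundant transcripts were 54.6%, 55.2% and 45.6%, likewise at the extremes. The part of this in the drop was not tested. Of the 506 transcripts, 158 were called in all 8 of these fits, 116 higher and 42 lower.

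Across 14 other settings fitted to the 8 libraries, 212 of the 506 were called every time, 184 higher and 28 lower, and 126 were called in all 22 fits, 105 higher and 21 lower. Library totals alone kept 35 of the 195 lower calls, so neither count of lower ones could exceed 35. Transcripts given no adjusted p in a setting, such as 49 in DESeq2, counted as not called. The 4 named transcripts, chosen for the smallest p on these libraries, were called in all 22. Fitted with the 48 h libraries, which add their spread, the same contrast called 59 transcripts, all among the 506, and ENSRNOT00000028315.6 lost its call (edgeR adjusted p = 0.416).

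**Figure D5:**
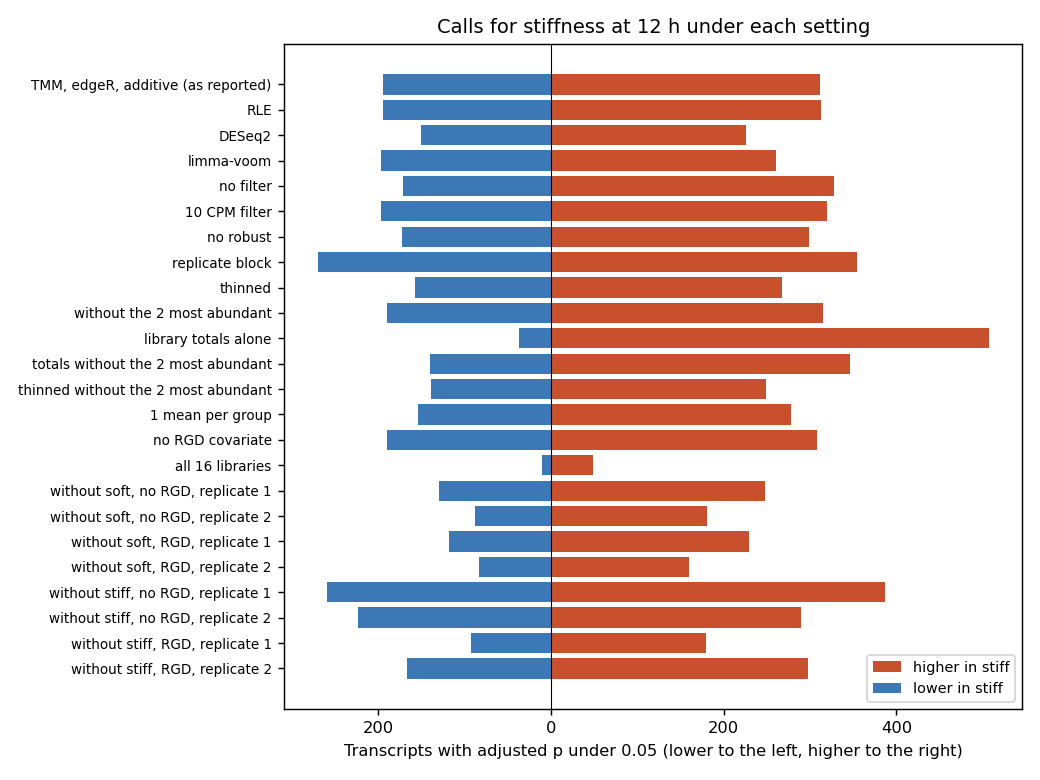
Number of transcripts with an adjusted p under 0.05 for stiffness at 12 h (x axis; lower in stiff gels to the left of 0, higher to the right) under each setting and with each library left out (y axis). Library totals alone gives 507 higher and 37 lower, against 311 and 195 as reported, and the fit of all 16 libraries gives 59 in all.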

How the data were processed

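The authors deposited whole-number counts per versioned Ensembl transcript, with no normalization, from 3′ tag libraries, per the labels' protocols. FastQC, HISAT2 2.1.0, HTSeq and the build rn6 are named in the submitters' processing notes. For the annotation release, counting mode, strand and molecular identifiers, the sources used here state nothing. Isoforms and overlapping genes may share reads, so single transcripts are uncertain to that extent.

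Counts of the 8 libraries at 12 h were fitted with edgeR 4.0.16 (R 4.3.3): filter by expression in groups (minimum count 10, total 15), TMM, a robust quasi-likelihood fit, adjusted p under 0.05. The transcripts tested held 99.4 to 99.6% of each library's counts. SEs are the fold change over the square root of F, an approximation. Replicates differed by more than counting noise in all 4 groups (chi-square over its degrees of freedom, 2.90 to 6.87). RefSeq's table of 47357 rat genes (assembly GRCr8) gave an Ensembl identifier for 0 of them, so 0 identifiers could be matched. Limma 3.58.1 and DESeq2 1.42.0 served as alternatives. Log2 CPM used a prior count of 2. The fit was tested on simulated data. Named transcripts have the smallest p in each direction among those called with a mean of 20 or more counts and the same sign without and with RGD. The comparison, rule and lists were chosen with earlier results of these data known.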

Additional observations from a re-analysis of the deposited data

Results flagged for a closer look

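In the 4 soft libraries at 12 h, the summed level of the 195 transcripts that were lower in stiff gels was 49397 CPM in replicate 2 of the soft gel with RGD, against 44831 CPM in the next highest. Its gap to the others was 0.839 of the group's range, above Dixon's 95% critical value for 4 samples. Of 18 sets of 4 libraries examined in this way, this 1 stood apart, and chance gives about 1 in 20. The same library had the lowest sum of the 311 higher transcripts, at 22798 CPM, and without it the number of calls was 244.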

How the results depend on the processing

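For stiffness at 12 h, the count of 506 was within 1.5 times under RLE factors (508), DESeq2 (377, with 49 of the 506 given no adjusted p), limma-voom (457), no filter (499), at least 10 CPM in 2 libraries (517), non-robust estimation (472), 1 mean per group (432), no RGD covariate (498), without the 2 most abundant transcripts (505) and with library totals without them (486). It was 544 with library totals alone and 425 in libraries thinned to the lowest total, or 388 when thinned after the 2 most abundant transcripts were removed. That last setting and both on totals were chosen after seeing the data. With all 16 libraries it was 59, where the construction adds the spread at 48 h, and with single libraries left out 244 to 647. With the replicate number as a block it was 624, 354 higher and 270 lower. Same-numbered replicates of different groups correlated at -0.042 to 0.272 in their deviations, over 0.1 for 2 of 6 pairs. The highest value was between the stiff gels without and with RGD. Whether same-numbered replicates shared a batch was not tested. The block gave 0 calls for both interactions, as without it.

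The interaction with RGD gave 0 or 1 call with single libraries left out and 0 in every other setting run. The interaction with time gave 32 calls with no filter, 0 to 26 with single libraries left out and 0 in the other settings run. The causes were not tested. None of the 4 named transcripts changed sign in any setting, which their choice by smallest p makes likely. The smallest change called below 10 CPM was 0.953 on the log2 scale.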
